A study of Mus musculus with 12 samples.

Results

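B lymphocytes and antibody-secreting plasma cells were followed in mouse lung tumors and normal mouse lung through 8 marker genes, Ms4a1, Cd79a, Cd79b, Pax5, Blk, Jchain, Mzb1 and Cr2. The genes were chosen by name, as rows of the expression table whose Ensembl identifier carries one of these symbols. Of the 8 genes, 6 were found among the 30399 genes of the table, and Ms4a1 and Mzb1 were not analysed here. RNA sequencing of poly-A selected RNA covered 12 mouse samples, 5 labelled normal lung and 7 labelled tumor, in a study of lung cancer models made with CRISPR/Cas9, a nuclease used to disrupt chosen genes, without a viral vector. The labels give the tissue alone, with no genotype, edited gene, strain, age, sex or treatment for either group, and do not say whether the normal lungs had received any editing reagent. The tumor titles carry 4 distinct numbers, 1 of them shared by tumors 3 and 4 and another by tumors 5, 6 and 7, and the labels do not say what a number stands for. Tumors 1 and 7 have the Spanish word for trachea in the title and tumors 3, 4, 5 and 6 the word for lung. Nothing states that the samples of a group came from separate animals, so p-values measure the spread between these samples.

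B cells recognise antigen through a membrane immunoglobulin that signals through the paired proteins Igα and Igβ. After activation some of them become plasma cells, which secrete the immunoglobulin and join IgA and IgM into polymers with the J chain. In normal lung B cells sit as scattered cells and small lymphoid clusters near the airways, and plasma cells of the airway wall supply the IgA that the epithelium carries to its surface.

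The upstream 250 bases of 3 of these genes are shown because the genes stand for the 3 patterns described below: Cd79a, low in every tumor, Pax5, a transcription factor with 128 to 256 normalized counts in tumors 2 to 6, and Jchain, which spread widest among the normal lungs. They come from RefSeq on build GRCm38.p6 and run 5′ to 3′ on the strand of the gene up to the base before its annotated start. Cd79a lies at chr7:24897247-24897496 on the plus strand, Pax5 at chr4:44710695-44710944 on the minus strand and Jchain at chr5:88527898-88528147 on the minus strand. The bases just after the Pax5 start were not found in a GENCODE transcript of that gene, while those of Cd79a and Jchain were. Capitals mark a match to the motifs searched.
Cd79a: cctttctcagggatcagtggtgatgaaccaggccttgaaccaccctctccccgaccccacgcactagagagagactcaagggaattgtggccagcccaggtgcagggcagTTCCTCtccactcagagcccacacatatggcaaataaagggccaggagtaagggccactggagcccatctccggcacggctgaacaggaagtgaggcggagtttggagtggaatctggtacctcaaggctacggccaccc
Pax5: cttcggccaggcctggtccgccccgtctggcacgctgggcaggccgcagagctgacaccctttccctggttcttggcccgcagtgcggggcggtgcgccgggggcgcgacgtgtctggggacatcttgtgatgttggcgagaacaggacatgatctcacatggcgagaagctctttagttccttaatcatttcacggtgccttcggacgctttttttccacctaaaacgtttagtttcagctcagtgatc
Jchain: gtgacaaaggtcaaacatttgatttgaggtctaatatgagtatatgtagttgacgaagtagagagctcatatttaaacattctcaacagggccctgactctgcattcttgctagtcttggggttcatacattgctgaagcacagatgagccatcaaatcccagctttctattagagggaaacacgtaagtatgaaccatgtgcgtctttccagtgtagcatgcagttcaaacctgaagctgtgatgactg

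Both strands were searched for the octamer ATGCAAAT, which Oct factors bind, for CCCNNGGG, the core bound by Ebf1, and for GAGGAA, the core bound by PU.1 and Spi-B. The Cd79a stretch held 1 match, TTCCTC, which is GAGGAA on the other strand, with its first base 140 bases before the start. The Pax5 and Jchain stretches held none of these letters. Over all 32851 promoter stretches of the same length in the table, 1.6% held the octamer, 11.8% the Ebf1 core and 23.3% GAGGAA, so a match of this kind is common and describes the letters alone. The sequences differed in base composition. Pax5 held 19 CpG dinucleotides, Cd79a 6 and Jchain 3, where the median over all stretches was 6. G and C made up 58.8% of both the Pax5 and the Cd79a stretch and 42.0% of that of Jchain.

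The values are read counts divided by a size factor for each library, called normalized counts here. Libraries held 11126432 to 17032234 reads in genes in normal lung and 13093843 to 24217633 in tumors. A value resting on 3 reads, taken as the lower limit for ranking, was at most 4.85 in normal lung and 3.57 in tumors, in normalized counts, and this limit covers counting error only. The normal lungs carried the markers of their label, while the tumor label names no tumor type. Summed over 6 genes of normal lung tissue, values were 244221 to 453262 normalized counts in normal lung, against 608 to 3069 in tumors, and 5 neuroendocrine genes summed to 97.8 to 132 in normal lung and 20814 to 102932 in tumors. Tumor 7 stood apart in the 4 markers of all leukocytes, which summed to 17608 normalized counts, against 436 to 4525 in the other tumors and 7506 to 13736 in normal lung. Tumor 7 also had 32144 normalized counts summed over 4 heart genes, against 114 to 2040 in the other tumors. Genes of the Y chromosome were expressed in 4 of the 5 normal lungs and in tumor 1 alone among the tumors, so tissue and sex cannot be fully told apart. For the 6 genes values without tumor 7 are given beside the results.

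All 6 genes were lower in tumor than in normal lung. In a linear model over all genes (limma on log2 of the normalized count plus 1, Benjamini-Hochberg adjustment), each passed the call used here, which asks for 1 log2 unit or more of change and an adjusted p below 0.05. The same was called for 24.5% of the 23674 genes tested, and 24.0% were called higher, so a call by itself is common in these data. The log2 fold changes of the 6 genes ran from -6.66 to -2.62 with a median of -4.96, where the median over all genes was 0.04. In 4 of the 6 genes every tumor lay below every normal lung, which held for 18.4% of all genes. With tumor 7 left out all 6 remained called lower and their median was -5.43. In bulk tissue fewer cells of a type and less RNA per cell cannot be told apart.

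**Figure D1:**
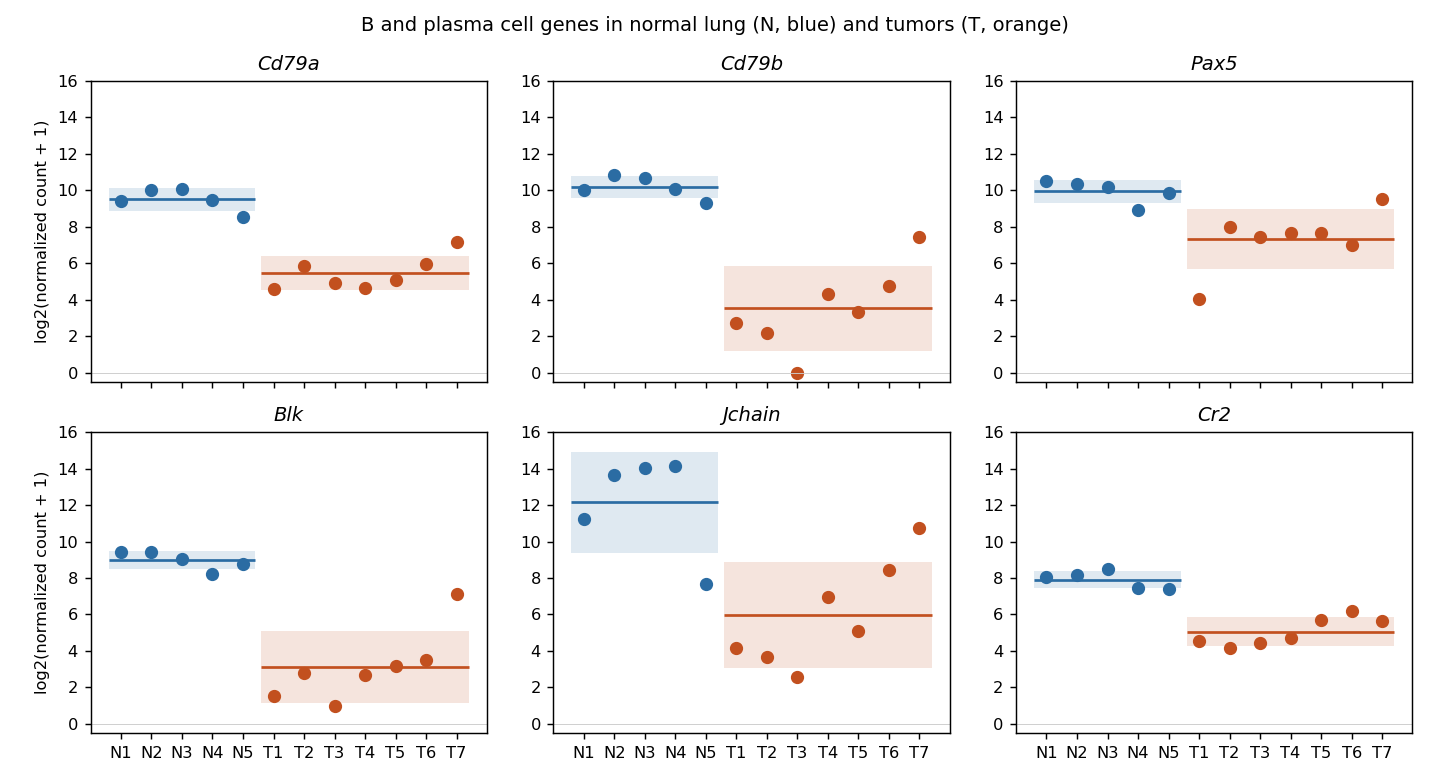
Normalized counts of the 6 genes, as log2 of the value plus 1, in normal lungs N1 to N5 (blue) and tumors T1 to T7 (orange). Points are samples, lines group means and bands 1 SD of the log2 values. Tumors lie below normal lungs for Cd79a, Cd79b, Blk and Cr2, while tumor 7 reaches the range of normal lung for Pax5 and tumors 6 and 7 for Jchain.

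Cd79a (ENSMUSG00000003379) encodes Igα, one of the signalling chains of the B cell receptor. Normal lungs 1 to 5 had values of 684, 1058, 1092, 704 and 376 normalized counts. In tumors 1 to 7 it had 23.4, 57.2, 28.8, 24.2, 32.4, 60.6 and 145. The group means were 783 ± 297 (SD, n = 5) and 53.0 ± 43.2 (SD, n = 7), a 14.8-fold difference of means. The groups did not overlap: the highest tumor, number 7, remained 2.60-fold below the lowest normal lung, number 5. Cd79a had a log2 fold change of -4.06, with a standard error (SE) of 0.44 and an adjusted p of 3.96e-06. Without tumor 7 it was -4.34. Every tumor value lay above the limit of 3 reads, so a low level was measured in all 7.

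Cd79b (ENSMUSG00000040592) encodes Igβ, the partner of Igα in the receptor. Its values in normal lungs 1 to 5 were 1059, 1872, 1618, 1079 and 640 normalized counts. In tumors 1 to 7 they were 5.70, 3.57, 0, 18.9, 8.90, 25.6 and 175. Tumors 2 and 3 were at or under the limit of 3 reads, and tumor 7 was the highest. The means were 1254 ± 490 (SD, n = 5) and 33.9 ± 62.8 (SD, n = 7), and the groups did not overlap. Cd79b had a log2 fold change of -6.66 (adjusted p = 4.22e-05, SE 0.94), which was -7.32 without tumor 7.

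The proportion of the partners was compared within samples. In normal lung the ratio of Cd79a to Cd79b normalized counts was narrow, from 0.565 to 0.675 with a mean of 0.625 ± 0.0465 (SD, n = 5). It was 4.11 in tumor 1, 1.29 in tumor 4, 3.64 in tumor 5, 2.37 in tumor 6 and 0.828 in tumor 7. All 5 of these ratios lay above the highest normal lung, and tumor 7 came nearest to it. No ratio is given for tumors 2 and 3, whose Cd79b is at or under the limit of 3 reads, although Cd79a reached 57.2 and 28.8 there. These ratios were not tested, and those of tumors 1, 4, 5 and 6 rest on few Cd79b reads.

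Blk (ENSMUSG00000014453) encodes a Src family kinase that acts below the B cell receptor. Normal lungs 1 to 5 had values of 680, 673, 518, 299 and 438 normalized counts. In tumors 1 to 7 it had 1.90, 5.96, 0.991, 5.39, 8.09, 10.1 and 138. The means were 522 ± 162 (SD, n = 5) and 24.3 ± 50.1 (SD, n = 7). Blk had a log2 fold change of -5.86, with an SE of 0.81 and an adjusted p of 3.54e-05 without overlap of the groups. Tumor 7 stood apart from the other 6 tumors, which stayed between 0.991 and 10.1. Without tumor 7 the log2 fold change was -6.52.

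Cr2 (ENSMUSG00000026616) encodes complement receptors that join a coreceptor on B cells and also serve follicular dendritic cells. Normal lungs 1 to 5 had 267, 290, 354, 176 and 166 normalized counts. Tumors 1 to 7 had 22.2, 16.7, 20.8, 25.1, 51.0, 72.8 and 48.7. The means were 251 ± 79.4 (SD, n = 5) and 36.7 ± 21.0 (SD, n = 7), and Cr2 had a log2 fold change of -2.86, with an SE of 0.39 and an adjusted p of 2.83e-05 with no overlap. Without tumor 7 it was -2.96. For this gene tumor 6, not tumor 7, was the highest tumor. The 3 tumors that share a title number, 5, 6 and 7, were the 3 highest.

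Pax5 (ENSMUSG00000014030) encodes the transcription factor that holds cells to the B lineage. Normal lungs 1 to 5 had values of 1459, 1287, 1147, 477 and 914 normalized counts. Tumors 1 to 7 had 15.2, 256, 171, 200, 199, 128 and 730. The groups overlapped through tumor 7, which lay above normal lung 4, and the other 6 tumors were below all normal lungs. The means were 1057 ± 381 (SD, n = 5) and 243 ± 228 (SD, n = 7). Pax5 had a log2 fold change of -2.62, with an SE of 0.69 and an adjusted p of 0.00474. Without tumor 7 the log2 fold change was -2.99, and with the level of Y-linked genes as a covariate it was -3.97.

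Pax5 was set beside Cd79b as well. The ratio of Pax5 to Cd79b normalized counts was 0.442 to 1.43 in normal lung. It was 2.67 in tumor 1, 10.6 in tumor 4, 22.4 in tumor 5, 5.0 in tumor 6 and 4.18 in tumor 7, each above the highest normal lung. In tumors 2 and 3 Pax5 stood at 256 and 171 with Cd79b at or under the limit of 3 reads. Tumor 1 differed from the other tumors in having little of either gene. The ratios were not tested, and those of tumors 1, 4, 5 and 6 rest on few Cd79b reads.

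**Figure D2:**
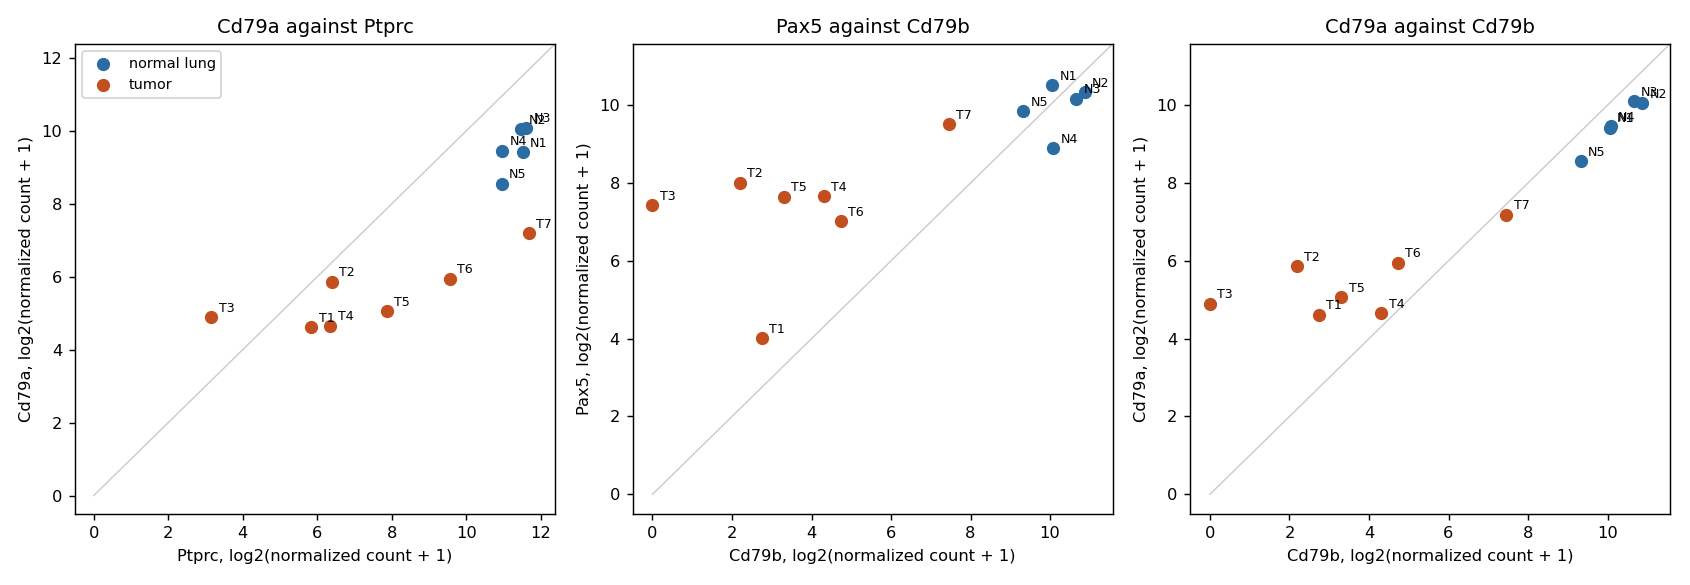
Pairs of genes by sample, as log2 of the normalized count plus 1 on both axes, in normal lungs (blue, N1 to N5) and tumors (orange, T1 to T7), with the line of equal values in grey. Normal lungs lie close together in each plot. Tumors lie above the normal proportion of Pax5 to Cd79b and of Cd79a to Cd79b, with Cd79b of tumor 3 at 0.

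Jchain (ENSMUSG00000067149) encodes the J chain that links IgA and IgM into polymers and marks antibody-secreting cells. Its values in normal lungs 1 to 5 were 2373, 13015, 16475, 18206 and 206 normalized counts, so the highest normal lung held 88.5 times the lowest. Tumors 1 to 7 had 17.1, 11.9, 4.96, 125, 33.2, 340 and 1743. Tumors 6 and 7 lay above normal lung 5, and the other 5 tumors were below all normal lungs. The means were 10055 ± 8253 (SD, n = 5) and 325 ± 636 (SD, n = 7). Jchain had a log2 fold change of -6.19, with an SE of 1.44 and an adjusted p of 0.00213. Without normal lung 5 the log2 fold change was -7.30 and without tumor 7 it was -6.99.

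Divided by the merged exon length of each gene, the order of levels differed between the groups. In normal lung Jchain had 3995 ± 3279 normalized counts per kilobase, Cd79b 876 ± 342, Cd79a 537 ± 204, Blk 193 ± 59.9, Pax5 119 ± 43.0 and Cr2 30.9 ± 9.79 (SD, n = 5). Jchain and Cd79b lay within 1 SD of the more variable gene, as did Cd79b and Cd79a, and the later neighbours were farther apart. In tumors Jchain had 129 ± 253 per kilobase, Cd79a 36.4 ± 29.7, Pax5 27.4 ± 25.7, Cd79b 23.7 ± 43.9, Blk 9.01 ± 18.6 and Cr2 4.53 ± 2.59 (SD, n = 7). There every neighbouring pair lay within 1 SD of the more variable gene. Tumor 7 carried much of these means and part of this order. Without it the tumor means per kilobase were 35.2 ± 52.0 for Jchain, 25.9 ± 11.5 for Cd79a, 18.2 ± 9.38 for Pax5, 7.30 ± 6.86 for Cd79b, 4.28 ± 2.75 for Cr2 and 2.00 ± 1.30 for Blk (SD, n = 6), so that Blk came after Cr2.

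Whether B cell genes differed from genes of other leukocytes was asked on the per-sample difference of log2 values, with exact two-sided permutation tests of the tissue labels. Ptprc, which encodes the CD45 phosphatase of all leukocytes, had 2934, 2844, 3120, 1993 and 1988 normalized counts in the 5 normal lungs and 56.3, 83.4, 7.93, 80.8, 231, 758 and 3291 in tumors 1 to 7. Cd79a relative to Ptprc was -1.79 ± 0.44 log2 units in normal lung (SD, n = 5) and -1.81 ± 2.08 in the tumor group (SD, n = 7). The groups differed by -0.02 (p = 0.970 by exact permutation, 0.970 after adjustment over 3 tests), and by 0.43 without tumor 7. The means were close while the tumors ran to both sides: 3 lay above the highest normal lung and 3 below the lowest, from 1.74 in tumor 3 to -4.50 in tumor 7. In tumor 7 Ptprc was above every normal lung while Cd79a was below every one of them.

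Cd3e encodes a chain of the T cell receptor complex. It had 138 to 267 normalized counts in normal lung, was at or under the limit of 3 reads in tumors 1 to 4 and had 4.85, 16.2 and 248 in tumors 5 to 7. Cd79a relative to Cd3e was 1.89 ± 0.43 log2 units in normal lung (SD, n = 5) and 3.10 ± 2.24 in the tumor group (SD, n = 7). The groups differed by 1.21 (p = 0.232 by exact permutation, 0.348 after adjustment). In 5 tumors the value was above the highest normal lung, and in tumor 7 alone it was below the lowest, at -0.77. In tumors 1 to 4 the value is set largely by the pseudocount, since Cd3e is at or under 3 reads there, and with a pseudocount of 10 the difference turned to -0.41. Without tumor 7 it was 1.86. The relation of plasma cell to B cell signal was compared in the same way. Jchain relative to Cd79a was 2.63 ± 2.22 in the 5 normal lungs and 0.50 ± 2.34 in the 7 tumors (mean ± SD), and the groups differed by -2.13 (p = 0.136 by exact permutation, 0.348 after adjustment), and by -2.65 without tumor 7. None of the 3 differences passed the threshold. The smallest p that 5 against 7 samples can give is 0.00253.

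The wider B cell programme was read from gene lists. Among 11 receptor and coreceptor genes other than the 6, 9 were lower in tumor, none were higher and 2 did not pass, with a median log2 fold change of -3.35. Cd22, an inhibitory coreceptor that binds sialic acid, had 533 to 1374 normalized counts in normal lung. It had 7.15 to 58.0 in tumors 1 to 6 and 911 in tumor 7, and its log2 fold change was -4.57 (adjusted p = 0.000709, SE 0.91). Fcrl1, an Fc receptor-like protein of B cells (-5.40), and Cd37, a tetraspanin of leukocytes (-5.21), had the largest changes of the list. Cd81, a tetraspanin that many cell types express, changed least among those called, with a log2 fold change of -1.04. Fcgr2b, the inhibitory Fc receptor, had -2.01. The values of Cd81 and Fcgr2b lost the call in several alternatives: edgeR gave -0.94 and -0.77. Annotated exons of Cd37, Cd81 and Fcgr2b, and of Cxcr5, Ell2, Cd46 and Cd55 named further on, overlap exons of an opposite-strand gene. This makes their counts uncertain. Bank1 and Klk1, also named further on, overlap such a gene outside their exons only, and none of the 6 marker genes overlaps one. By edgeR on 11 libraries only 3 of the 11 were called lower, against 7 by limma without the same library, tumor 3. The 3 were Fcrl1, Cd37 and Fcer2a (log2 fold change -4.15 by limma), so Cd22 was not called by edgeR.

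Of 10 genes that carry the signal below the receptor, 8 were lower in tumor and 2 did not pass, with a median of -2.74. Lyn, a kinase that starts receptor signalling, had a log2 fold change of -2.28 (SE 0.45) and Syk, the kinase recruited to Igα and Igβ, -2.68 (SE 0.60). Bank1, a B cell scaffold protein, had -5.95 (SE 0.95), and Pik3ap1, an adaptor for phosphoinositide 3-kinase, had -3.88 (SE 1.06). Lyn and Syk are also expressed by myeloid cells. In tumor 7 Lyn reached 3015 and Syk 2974 normalized counts, within the range of normal lung, whereas Bank1 stayed at 91.6, below the lowest normal lung. By edgeR 4 of the 10 were called lower and Pik3ap1 was not (-1.69).

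Of 11 transcription factors of B cells 10 were tested. In the tumors 7 of these were lower, 2 were higher and 1 did not pass, with a median of -1.96. Ikzf3, which encodes Aiolos, had a log2 fold change of -6.17, with an SE of 1.24 and an adjusted p of 0.000729, and Spib had -5.93 (adjusted p = 0.000129, SE 0.96), both factors of lymphoid cells. Ebf1, which acts with Pax5 in setting up the B lineage and is also found in stromal cells, had 932 to 1607 normalized counts in normal lung, 177 to 754 in tumors 1 to 6 and 1686 in tumor 7. Its log2 fold change was -1.73 (adjusted p = 0.00621, SE 0.47). Tcf3 and Pou2f2 were the genes called higher, and Bcl11a had 0.77 (adjusted p = 0.0775, SE 0.36) and did not pass. Tcf3 encodes the E proteins, which are widely expressed, and rose by 1.42 (adjusted p = 7.16e-05, SE 0.21). Pou2f2, which encodes Oct-2, rose by 1.89 (adjusted p = 1.13e-05, SE 0.23), from 578 to 1478 normalized counts in normal lung to 2337 to 4594 in tumors. Every tumor lay above every normal lung for both, which held for 4749 of the 23674 genes tested. Both remained called higher in all 23 alternatives.

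**Figure D3:**
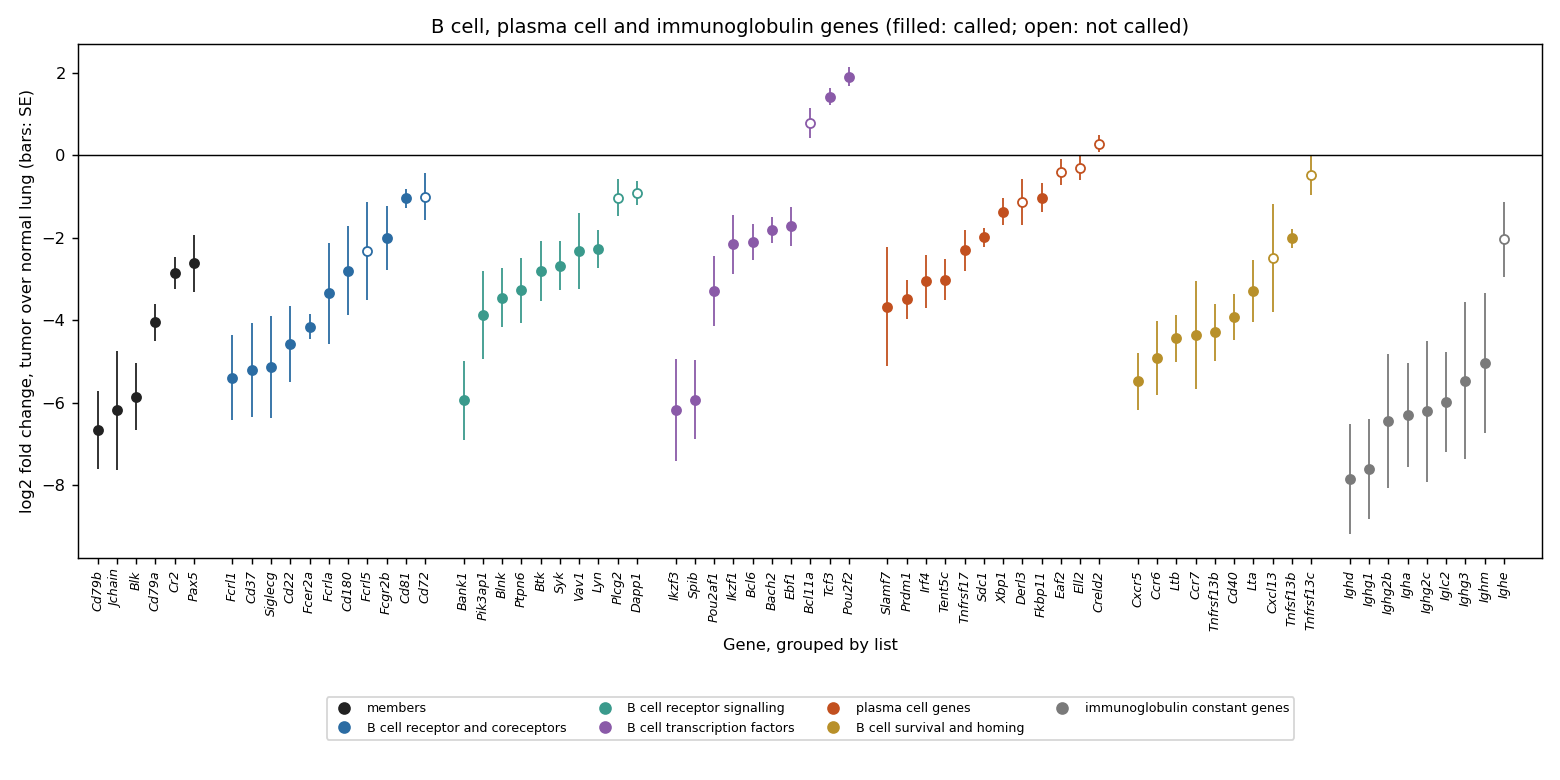
Log2 fold change of tumor over normal lung for single genes (points) with its standard error (bars), grouped by list and ordered within each list. Filled points passed the adjusted p of 0.05 with a log2 change of 1 or more, and open points did not. Tcf3 and Pou2f2 are the called genes above 0, while the 6 marker genes and the immunoglobulin genes lie below it.

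Of 12 plasma cell genes other than Jchain 8 were lower in tumor and 4 did not pass, with a median log2 fold change of -1.68. Sdc1, the syndecan used to sort plasma cells and also made by epithelium, fell by 1.99 (SE 0.24). Xbp1, a factor of secretory cells in general, fell by 1.37 (SE 0.33). Prdm1, which encodes the plasma cell factor Blimp-1, had 489 to 664 normalized counts in normal lung, against 22.6 to 240 in tumors, a log2 fold change of -3.50 (adjusted p = 2.57e-05, SE 0.47). Slamf7, a surface receptor of plasma cells and other leukocytes, had -3.68 (SE 1.44). The call of Slamf7 was lost by edgeR (-0.47) and in 9 of the 12 settings that left out 1 sample. Tnfrsf17, the receptor BCMA of plasma cells, was low throughout, at 11.5 to 62.4 normalized counts in normal lung, against 2.69 to 8.34 in tumors (log2 fold change -2.31, SE 0.49). Creld2 and Ell2, used in secretion and in immunoglobulin processing but not only there, had log2 fold changes of 0.28 and -0.30 and did not pass.

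Among 10 tested genes of B cell survival and homing 8 were lower, none were higher and 2 did not pass (median -4.11). Cxcr5, the receptor that leads B cells to follicles, had 249 to 732 normalized counts in normal lung, against 2.38 to 95.4 in tumors, a log2 fold change of -5.49 (adjusted p = 1.65e-05, SE 0.70). Ccr6, a chemokine receptor of B cells and some T cells, had -4.92. Tnfsf13b, which encodes the survival factor BAFF, fell by 2.02 (SE 0.24). Tnfrsf13c, the receptor for BAFF, averaged 343 ± 237 normalized counts in normal lung (SD, n = 5) against 235 ± 150 in the tumor group (SD, n = 7). Its log2 fold change of -0.49 (adjusted p = 0.394, SE 0.48) did not pass, and the groups overlapped. Of the genes that move or bind IgA and IgM, all 3 were lower in tumor. Pigr, the epithelial receptor that carries polymeric IgA, had -5.90 (SE 1.28) and Fcmr, the IgM receptor of B cells, -6.37 (SE 0.79).

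Immunoglobulin constant genes, the products of B and plasma cells, showed the largest median decrease of the B cell lists, -6.21 over 9 tested genes, of which 8 were lower and 1, Ighe, did not pass. For Ighm, the constant gene of IgM, normal lungs 1 to 5 gave 4670, 19686, 41745, 19440 and 1816 normalized counts. It had 15.8, 77.4, 13.9, 1282, 138, 4213 and 24368 in tumors 1 to 7. Tumor 7 lay above 4 of the 5 normal lungs and tumor 6 above 1 of them. The log2 fold change of Ighm was -5.04 (adjusted p = 0.0194, SE 1.70), and -6.08 without tumor 7. It did not pass without normal lung 3 (-4.55, adjusted p = 0.0512) or by edgeR (-1.66, adjusted p = 0.337). Ighd, the constant gene of IgD on mature naive B cells, had 1093 to 2709 in normal lung and 0 to 372 in tumors (log2 fold change -7.86, adjusted p = 0.000193, SE 1.33). Unlike Ighm, it was below every normal lung in tumor 7.

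Of the other classes, Igha had a log2 fold change of -6.31 (SE 1.26) and Iglc2, a constant gene of the lambda light chain, -5.99 (SE 1.21). The IgG genes are near copies of each other, so reads can be split between them and single values are uncertain. Ighg1 had a log2 fold change of -7.62, Ighg2b -6.45, Ighg2c -6.21 and Ighg3 -5.47. Normal lung 3 held 35155 normalized counts of Ighg1, against 96.6 to 5376 in the other normal lungs. Ighg3 did not pass without that lung (-4.23) or by edgeR, which called 6 of the 9 tested immunoglobulin constant genes lower.

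The mix of heavy chain classes differed between samples. The heavy chain genes summed to 23810, 88439, 235555, 93817 and 5015 in normal lungs 1 to 5, in normalized counts, and to 161, 219, 110, 1431, 484, 5554 and 34219 in tumors 1 to 7. IgM made up 17.7% to 36.2% of heavy chain reads in normal lung. Its share was 89.6% in tumor 4 (95% Wilson interval 88.0 to 91.0), 75.9% in tumor 6 (74.9 to 76.8) and 71.2% in tumor 7 (70.8 to 71.6). These 3 tumors held most of the heavy chain signal among the tumors, and their IgM shares were above those of all normal lungs. The intervals cover counting error only. IgA led in tumor 1 at 85.0% (80.1 to 88.9), a library with 254 heavy chain reads, and in tumor 5 at 47.3% (43.4 to 51.3). IgG led in tumors 2 and 3, on 184 and 111 reads. Among normal lungs IgG led in lung 3 at 73.0% and lung 4 at 55.3%, while it was 4.79% in lung 5. The shares were not tested between groups.

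**Figure D4:**
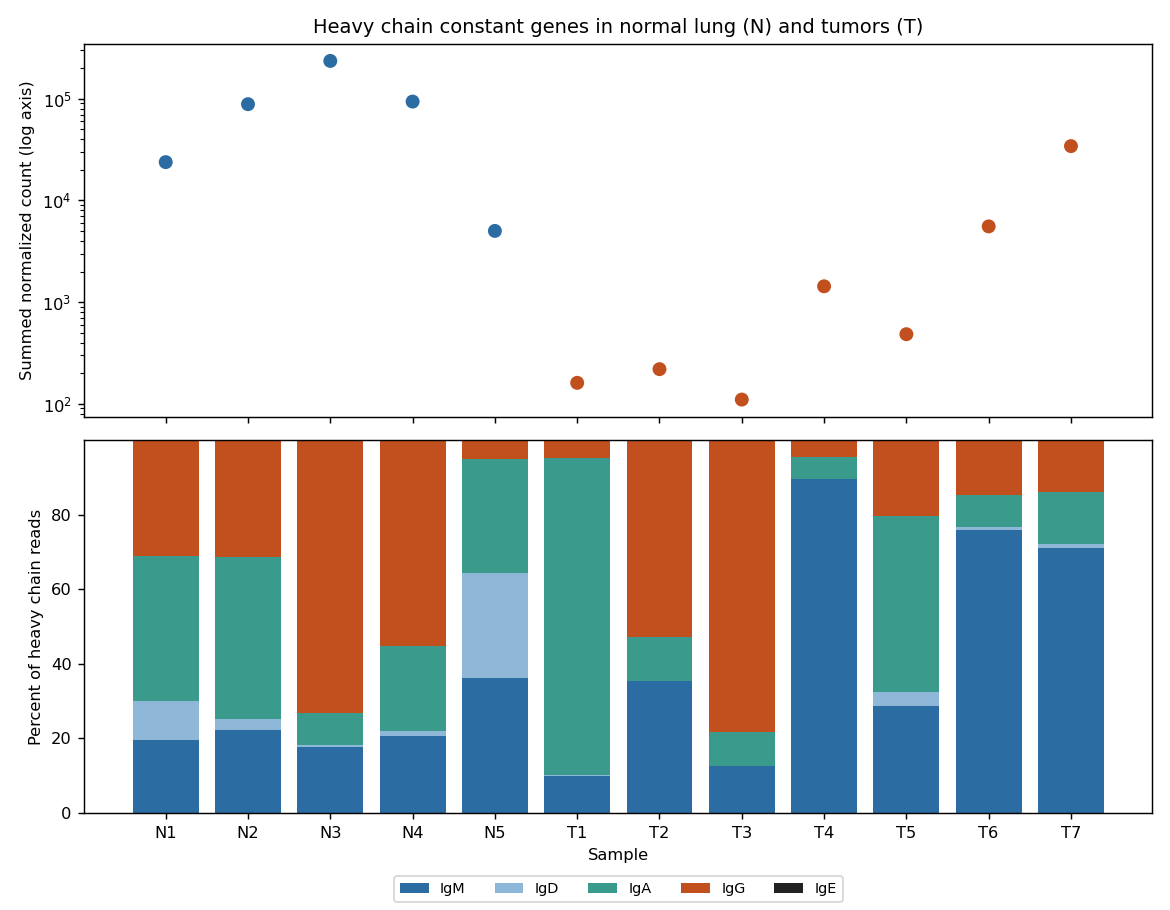
Heavy chain constant genes by sample, normal lungs N1 to N5 and tumors T1 to T7. The upper plot gives the summed normalized count on a log axis (blue normal lung, orange tumor) and the lower plot the percentage of heavy chain reads in each class. Tumors 4, 6 and 7 are mostly IgM, and normal lung 3 has the highest sum, 235555.

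Most markers of other leukocytes were called lower in tumor as well. Of 7 T cell markers 6 were lower in tumor, of 5 tested macrophage and monocyte markers 5, of 4 neutrophil markers 4 and of the 4 markers of all leukocytes 4. Cd8a, the T cell marker that did not pass, had 185 to 411 normalized counts in normal lung and 0 to 100 in tumors 1 to 5. It had 489 in tumor 6 and 1284 in tumor 7, both above every normal lung. For the leukocyte markers edgeR on 11 libraries called 0 of 4 and DESeq2 0 of the 2 it gave an adjusted p, with 1 at an unadjusted p under 0.05 by each tool. The T cell markers summed to 1361 to 2458 normalized counts in normal lung, to 52.5 to 711 in tumors 1 to 6 and to 2514 in tumor 7. Macrophage and monocyte markers summed to 82024 to 161800 in normal lung and 347 to 9292 in tumors. Neutrophil markers summed to 2059 to 5245 in normal lung, to 4523 in tumor 2 and to 1.98 to 350 in the other tumors. In tumor 3 Cd3e and Cd79b were both listed at 0. Plasmacytoid dendritic cells also use Spib and Jchain. Of their 5 tested markers 3 were lower, 1 was higher and 1, Klk1, did not pass. The higher one was Tcf4, a factor that many cell types express, with a log2 fold change of 1.43 (adjusted p = 0.0114, SE 0.44), which did not pass with the Y-linked covariate (0.77) or with shared title numbers averaged (1.07). Siglech, their defining marker, had 95.9 to 197 normalized counts in normal lung, 0 to 16.2 in tumors 1 to 6 and 136 in tumor 7. The part of other cells, of sex and of the heart signal of tumor 7 in the B cell results was not tested. With the level of Y-linked genes as a covariate all 6 marker genes remained lower, with Cd79a at -4.68 and Pax5 at -3.97.

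Genes that follow the markers most closely were sought by Pearson correlation of log2 values over the genes with a mean of at least 10 normalized counts, as a description across 12 samples that share the difference between the groups. With Cd79a the highest were Cnr2 (r = 0.987), the cannabinoid receptor of lymphocytes, Cept1 (0.985) and Ankrd63 (0.985). Among the markers Blk had 0.964, Cd79b 0.944, Cr2 0.934, Jchain 0.884 and Pax5 0.825. Within the 7 tumors the order was different. Cd79a then had 0.888 with Blk, 0.709 with Jchain, 0.688 with Cd79b, 0.675 with Pax5 and 0.457 with Cr2. With Jchain over the 12 samples the highest were variable gene segments, Igkv1-110 (0.981), Igkv6-15 (0.980) and Ighv1-26 (0.980). Within the tumors Jchain had 0.967 with Cd79b and 0.478 with Pax5. The genes highest within the tumors were Clint1 (0.989) and Mef2d (0.986) for Cd79a and Col27a1 (0.996) and Tex14 (0.990) for Jchain, none of them known as B cell markers. The correlations within tumors rest on 7 samples and are given without a test.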

How the data were processed

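Expression was measured by poly-A RNA sequencing in 12 mouse samples, 5 of normal lung and 7 tumors, which were put in groups by their tissue label, and replicates were numbered as listed. The authors deposited 1 table of 30399 genes. The deposited values are a signal of read counts divided by a size factor for each library, a unit worked out from the values: in each column 100% were whole multiples of the smallest value within a tolerance of 0.01. The submitters' processing notes name featureCounts, DESeq2 and build GRCm39, with no role or version, and the annotation and use of strand are not given in the sources used here. Symbols were matched for 29982 identifiers. Exon lengths and overlaps came from GENCODE M21, an annotation of another build, so no gene coordinates are taken from it. Promoter stretches came from RefSeq on GRCm38.p6, where Cd79b and Blk were not matched.

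The 23674 genes with a mean of at least 1 were fitted on log2(value + 1) with limma 3.58.1 in R 4.3.3 (lmFit, eBayes with trend, Benjamini-Hochberg over all of them) and called where the adjusted p was below 0.05 and the change was 1 log2 unit or more. Fold changes on this scale understate the change of low genes. As the table holds normalized values, limma was used in place of a count test. Checked on simulated data for this comparison (23674 genes), the fit recovered 70 of 100 genes changed by 1.5 log2 units and 100 of 100 changed by 3, and 5 of 175 calls were false. The simulation gave every gene the same spread between samples and changed few genes, none of them near the lower limit. In the real data the spread differed between genes and many more were called, so these rates may not hold there. No same-group pair matched within sampling noise in 25 pairs compared on whole reads (smallest chi-square per degree of freedom 18.4). Pairs with tumor 3 were not compared. Other values came from Python 3.11.15 with scipy 1.17.1, pandas 2.3.3 and numpy 2.4.6.

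The marker genes and lists were chosen with earlier results of these data known. Some list genes are not reported here and stay out of the lists. Genes are named if they are the markers, the 2 highest or the 2 most changed of a list, immunoglobulin constant genes, or the 8 most alike by correlation. Cd22, Ebf1, Tnfrsf17, Creld2, Ell2 and the genes of the closing section outside this rule were added after their values were seen. Alternatives were a pseudocount of 0.1 (and of 10 for the relative values), no filter and a mean of at least 10, quantile and equal-total scaling, taking tumors with a common title number as 1 mean or as correlated, dropping trachea-titled tumors or each sample, a Y-linked covariate, and edgeR 4.0.16 (TMM) and DESeq2 1.42.0 on the whole reads of 11 libraries. In tumor 3 a read is worth 0.991, so near 1 that its reads were not taken as recovered. It is left out of the count tests, and read numbers given for it rest on that step.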

Additional observations from a re-analysis of the deposited data

Results flagged for a closer look

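Blk in tumors had 1 sample far from the others. Tumor 7 stood at 7.12 on the log2(value + 1) scale, or 138 normalized counts, where the next tumor had 3.47 and the lowest 0.99.

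Ighe, the constant gene of IgE, showed the same at a very low level. Tumor 7 stood at 3.22 on that scale, or 8.33 normalized counts, with the next tumor at 0.92 and the lowest at 0. Over 36 comparisons of this kind 2 samples stood apart, where chance gives about 1 in 20, or 1.8.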

How the results depend on the processing

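All 6 marker genes remained lower in tumor in the 23 alternatives. Cd79a ran from -4.68 to -3.66, Cd79b from -7.32 to -4.84, Pax5 from -3.97 to -1.95, Blk from -6.56 to -4.07, Jchain from -7.65 to -4.59 and Cr2 from -3.32 to -2.57. Cd79a relative to Ptprc changed sign, never passing: 0.042 with a pseudocount of 10, 0.44 with shared title numbers averaged, 0.40 without trachea-titled tumors, and -0.61 to 0.43 over single samples left out, positive without normal lungs 2, 3 or 4 or tumors 5, 6 or 7. Cd79a relative to Cd3e was -0.41 with a pseudocount of 10. Cd8a, not called (-3.68), was 0.0536 by DESeq2 and 0.16 by edgeR.

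Several list counts fell by more than 1.5 times by one or both count tools on 11 libraries. By edgeR, with DESeq2 in brackets over the genes it gave an adjusted p, numbers lower were 3 of 11 receptor and coreceptor genes (5 of 11), 4 of 10 signalling genes (3 of 6), 5 of 10 transcription factors (4 of 9), 2 of 5 complement partners (3 of 5), 3 of 7 T cell markers (5 of 7), 1 of 5 plasmacytoid dendritic cell markers (1 of 4), 1 of 4 lymphoid stroma markers (1 of 2), 3 of 5 macrophage markers (3 of 3), 1 of 4 neutrophil markers (2 of 4) and 0 of 4 leukocyte markers (0 of 2), of which 1 had an unadjusted p under 0.05 by either tool. The lymphoid stroma marker called lower by both tools was Fcer2a, which is also counted among the receptor and coreceptor genes. Precursor genes lower went from 2 to 1 with the Y-linked covariate and with a mean of at least 10. Over all genes, 4318 to 6484 were called higher and 4515 to 6263 lower, against 5686 and 5805. Equal totals moved the median of all genes by 0.19. Values under 3 reads, such as Cd79b in tumor 3, cannot be ranked. No paired analysis was made, because the labels pair no samples and no normal lung shares a title number with a tumor.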

Other observations

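A few genes, chosen after their values were seen, had their highest level in normal lung 3. Ighe had 69.4 normalized counts in normal lung 3, against 0 to 8.46 in the other normal lungs. Cxcl13, the chemokine of B cell follicles, reached 895 in this lung, 24.1 to 284 in the other normal lungs and 0.809 to 285 in tumors, and did not pass the test (log2 fold change -2.50, adjusted p = 0.113, SE 1.31). Madcam1, an adhesion molecule of lymphoid vessels, had 59.8 in normal lung 3 and 0 to 3.23 in the other normal lungs. The same lung had the highest IgG share, 73.0%. Normal lung 5 stood at the other end, with 206 of Jchain and an IgG share of 4.79%.

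Variable segments of the light and heavy chains were read as well, also chosen after the values were seen. A share of reads does not count the B cell lineages that contribute. In normal lung the most used of 114 listed kappa segments took 5.88% to 18.0% of kappa variable reads. In tumor 7 Igkv3-2 took 59.3% of 5188 reads and in tumor 6 33.0% of 746 reads, and in tumor 5 it took 54.2% of only 24 reads. These 3 tumors share a title number, and Igkv3-2 was also the most used segment of normal lung 1, at 18.0% of 1931 reads. Tumor 4 was led by another segment, Igkv14-126, with 41.5% of 282 reads. In heavy chains the most used segment took 25.8% in tumor 7 (Ighv1-53) and 27.0% in tumor 6 (Ighv14-4), against 5.95% to 21.8% in normal lung, and in tumor 4 it took 16.9% of 83 reads, within that range. Segments are similar in sequence and reads can be shared between them, so these shares are uncertain and were not tested.

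Precursor B cell genes did not move as a set. Vpreb3 had 339 to 534 normalized counts in normal lung and 11.9 to 57.4 in tumors and was lower in tumor, with a log2 fold change of -4.21 (limma adjusted p = 4.82e-07, SE 0.37). Dntt, the polymerase that adds bases at immunoglobulin joints, was higher in tumor, with 2.15 to 9.20 normalized counts in normal lung and 5.96 to 45.6 in tumors (log2 fold change 1.67, adjusted p = 0.0103, SE 0.50), and tumors 2 and 7 overlapped normal lung. Among partners of the complement receptors, C3 (log2 fold change -3.93, SE 1.24), Cd55 (-4.14, SE 0.44) and Cr1l (-2.11, SE 0.22) were lower, though C3 did not pass by edgeR on 11 libraries (-1.72, adjusted p = 0.104), while Cd46 had -0.57 (SE 0.28) and did not pass.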
